A study of Mus musculus with 12 samples.

Results

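CD11b+ cells sorted from the hippocampus of irradiated C57BL/6 mice were compared with those of sham-treated mice of the same strain. The irradiated group had 3 female C57BL/6 mice given a single dose of 10 Gy of X-rays to the forebrain under anesthesia at 6.5 weeks of age, and the sham group had 3 female C57BL/6 mice that were sham irradiated, a dose of 0 Gy. Both groups were analysed 1 month later, at 10.5 weeks. These 6 arrays were taken by their labels out of 12, and the other 6 came from Balb/c mice treated the same way. Each Affymetrix array held RNA of 1 animal after consecutive rounds of linear amplification. The sort used CD11b alone, a surface protein that monocytes, other macrophages and neutrophils also carry, so the sorted cells can include these beside microglia. Of 18193 genes with a probe set of 1 symbol, 9120 were kept because 3 or more of the 12 arrays gave a log2 value above 5, and the comparison covers these.

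Microglia are the resident macrophages of the brain parenchyma, and they renew themselves locally rather than from blood monocytes in the healthy brain. X-rays break DNA, and the damage activates the transcription factor p53, which induces the cell cycle inhibitor Cdkn1a (p21) and a set of repair, metabolic and death genes. Irradiated brain is also known for lasting microglial activation, for the loss of dividing neural progenitors in the hippocampus, and for entry of monocytes that carry the chemokine receptor Ccr2.

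The 6 arrays had the same distribution of values by construction, with a median of 2.44 and 35.3% of probe sets above 5. P2ry12, the ADP receptor by which microglia sense injury, had values of 13.76, 14.06 and 13.99 in the sham arrays and 13.79, 14.20 and 13.90 in the irradiated arrays. Tmem119, another microglial marker, lay between 14.09 and 14.12 in sham and between 13.84 and 14.02 in irradiated arrays. All 11 microglia markers with a named probe set were kept, and none was below 5 in all 6 arrays. The gap between 3' and 5' probe sets of Actb and Gapdh, which widens with RNA degradation, was 3.50 to 3.75 in sham and 3.55 to 3.77 in irradiated arrays. The 18S ribosomal RNA signal was 12.05 to 12.31 in sham arrays and lower in every irradiated array, at 11.55 to 11.77. Among the Balb/c arrays, which share in the estimate of spread used below, the gap was 4.82 and 4.21 in irradiated replicates 2 and 3. It was 3.54 to 3.81 in the other Balb/c arrays, and the 18S signal of Balb/c irradiated replicate 2 was 10.5. The part of these measures in the results was not tested. The first principal component of the 6 arrays held 48.0% of the variance and separated the groups, with irradiated replicate 3 farthest from the sham arrays and irradiated replicate 2 nearest.

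Irradiation was followed by a change in 335 genes, 3.67% of the 9120 tested, at an adjusted p under 0.05. Of these, 202 rose (2.21%) and 133 fell (1.46%). These shares are the ones to set beside each count of list members below, and a short list with no call is not shown to be unchanged. The rises were the larger changes: 148 genes rose by 2-fold or more against 31 that fell by that much, and 46 rose by 4-fold or more against 1. The median change was 1.29 on the log2 scale among genes that rose and -0.75 among those that fell, beside -0.04 over all genes tested. The 335 genes were all non-overlapping, with every irradiated array on one side of every sham array. An unadjusted p under 0.05 was reached by 1945 genes, 939 higher and 1006 lower. Separation of the groups alone was met by 2413 genes (26.5%), 1039 higher (11.4%) and 1374 lower (15.1%) in irradiated arrays. Of the genes that rose, 32 had a sham mean under 5, where values approach the bottom of the scale and a fold change is not well defined. In bulk RNA a larger number of cells of one type and more RNA per cell cannot be told apart.

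Which genes were called depended on single arrays. Leaving out each of the 6 arrays in turn gave between 113 calls, without irradiated replicate 3, and 351, without irradiated replicate 2, and 93 genes were called in every one of these fits, 73 higher and 20 lower. Of the genes that rose, 104 were highest in irradiated replicate 3, and of those that fell, 85 were lowest in it. The counts without sham replicate 1, sham replicate 2 and irradiated replicate 1 were 207, 163 and 214. Genes that kept the call in all of these fits are named as such below.

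**Figure D1:**
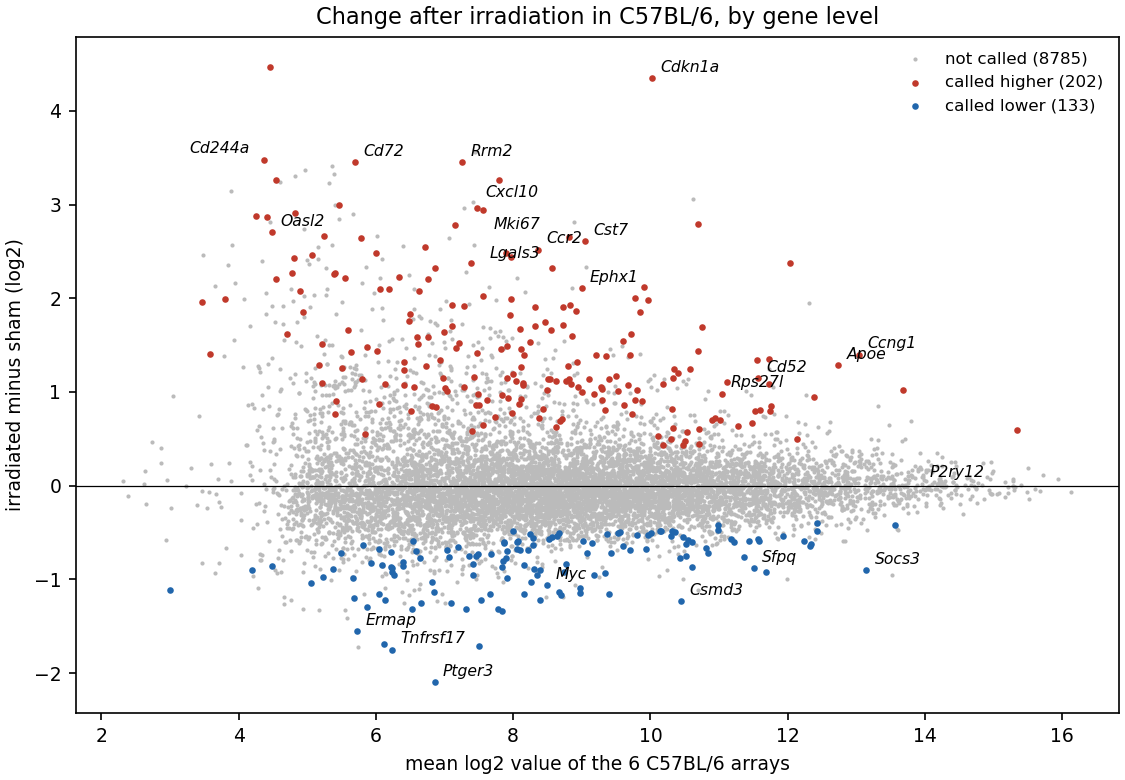
Difference between irradiated and sham means (log2, vertical) against the mean log2 value of the 6 C57BL/6 arrays (horizontal) for the 9120 genes tested, with the 202 that rose in red and the 133 that fell in blue. Cdkn1a stands out among genes of high value at a difference of 4.35, and the falls reach -2.10 for Ptger3.

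Cdkn1a had the largest rise among genes measured well above the bottom of the scale in both groups. Its product, p21, halts the cell cycle by binding cyclin-dependent kinases. Its log2 values were 7.61, 7.54 and 8.39 in the sham arrays and 12.34, 12.19 and 12.05 in the irradiated arrays. The 2 groups were far apart, and the mean rose from 7.84 ± 0.47 to 12.19 ± 0.15 (SD, n = 3). This is a change of 4.35 ± 0.21 (SE), or 20.4-fold, with an adjusted p of 3.90e-06, and the call was kept whichever array was left out.

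Other p53 targets rose with it. Of 39 listed genes with a probe set, 29 were kept and 9 rose (31.0%), while none fell, and each of these counts includes Cdkn1a. The median change of the kept members was 0.47, and 9 members were below 5 in all 6 arrays. Ccng1 encodes cyclin G1, which takes part in p53 feedback, and had values of 12.30, 12.32 and 12.42 in sham and 13.76, 13.77 and 13.69 in irradiated arrays. Its replicates agreed to within 0.12, and it rose by 1.40 ± 0.11 (adjusted p = 1.86e-04). Ephx1, the microsomal epoxide hydrolase, went from 8.02, 7.89 and 7.92 to 9.99, 9.83 and 10.34, a rise of 2.11 ± 0.16 or 4.31-fold. Dcxr, a carbonyl reductase, rose by 1.39 ± 0.14. Rps27l, a ribosomal protein paralogue, rose by 0.98 ± 0.10 from a tight sham range of 10.51 to 10.62. Trp53inp1, a p53-induced nuclear protein, rose by 1.36 ± 0.16, from 11.05 ± 0.17 to 12.41 ± 0.15. These 5 kept their calls whichever array was left out.

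The rise did not extend over the whole p53 list. Of the 29 kept members, 20 did not pass the test, and 8 of the 29 had a difference below 0. Without irradiated replicate 3, 8 p53 targets were called, and 7 were called in all of the fits that left out 1 array. Trp53 itself was not analysed here. Of 22 kept repair and checkpoint genes none rose and 1 fell (4.55%, against 1.46% of all genes), with a median of -0.12. At an unadjusted p under 0.05, 3 were higher and 4 lower. The gene that fell was Xrcc1, a scaffold of single-strand break repair, from 6.49, 6.24 and 5.75 to 5.31, 5.20 and 5.01 (-0.99 ± 0.18, adjusted p = 0.017). Its call was lost without sham replicate 2 or irradiated replicate 3, with adjusted p of 0.055 and 0.0712.

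The 250 bases before the annotated start of Cdkn1a, from the RefSeq promoter table of build GRCm38.p6, lie at chr17:29090729-29090978 on the plus strand. They are shown because they hold a pair of p53 half-sites within 13 bases of each other, from base -73 to base -42. The match is in capitals, 5′ to 3′. The run tgacatgttc directly after the capitals differs from the half-site letters only in its first base, and the search allowed no mismatch. The capitals are therefore not shown to be the pair that p53 uses.
Cdkn1a: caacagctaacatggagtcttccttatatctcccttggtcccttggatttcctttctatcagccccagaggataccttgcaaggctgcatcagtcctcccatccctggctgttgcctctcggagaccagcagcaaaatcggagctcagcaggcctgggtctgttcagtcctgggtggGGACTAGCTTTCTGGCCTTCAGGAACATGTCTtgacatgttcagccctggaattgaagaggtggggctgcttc
Such a pair was found in 5 of the 7468 kept genes with a promoter window (0.1%), and in 1 of 7 p53 targets that rose and had one. The windows span 250 bases before to 50 after each start, and both strands were searched. A match is a run of letters, and the arrays do not show which protein binds there.

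Genes of cell division rose beside the inhibitor. Of 81 mitosis and chromosome segregation genes with a probe set, 34 were kept, and 16 of these rose (47.1%) while none fell. The median change of the kept members was 1.21. Of the 47 that were not kept, 37 were below 5 in all 6 C57BL/6 arrays, and a gene could pass the filter through the irradiated arrays alone. Mki67, the gene of the Ki-67 antigen carried by dividing cells, had values of 6.37, 5.73 and 6.17 in sham and 8.81, 9.26 and 9.01 in irradiated arrays. All 3 irradiated mice lay above all 3 sham mice by more than 2 log2 units, and the rise was 2.94 ± 0.26 or 7.66-fold (adjusted p = 5.28e-04).

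Several regulators and structural proteins of mitosis followed the same course. Cdk1, the kinase that drives entry into mitosis, went from 4.89, 5.20 and 4.95 to 6.81, 7.26 and 7.26, a rise of 2.10 ± 0.23. Ccna2, the A-type cyclin that partners it, went from 4.74, 4.06 and 5.48 to 7.13, 7.19 and 7.42. Cenpa, the histone variant of centromeres, rose by 1.76 ± 0.19, and Top2a, the topoisomerase that untangles sister chromatids, by 1.70 ± 0.21. Nuf2, a kinetochore subunit, rose by 1.62 ± 0.20 and Cep55, which acts in the final cut between daughter cells, by 2.46 ± 0.33. Without irradiated replicate 3 the list had 9 members that rose in place of 16, and those 9 were called in every fit that left out 1 array. The genes described here are among those 9.

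Replication genes changed less uniformly. Of 35 kept members 5 rose (14.3%), with a median of 0.51. Rrm2, the ribonucleotide reductase subunit that limits the supply of deoxynucleotides, had values of 5.70, 5.32 and 5.57 in sham and 8.81, 9.11 and 9.04 in irradiated arrays. It rose by 3.45 ± 0.45, and its other kept probe set rose by 2.08. Mcm5, a subunit of the replicative helicase, rose by 0.82 ± 0.14. Hells, a chromatin remodeller, rose by 1.66 ± 0.32, Ccne2, an E-type cyclin, by 1.85 ± 0.41, and E2f8, a repressor of the E2F family, by 2.26 ± 0.53. Without irradiated replicate 3, 1 member was called in place of 5, and that member was Rrm2. Among cell cycle inhibitors and D cyclins, 3 of 14 kept members rose: Cdkn1a, Ccnd1 (1.08 ± 0.20) and Ccnd2 (1.74 ± 0.38). Both cyclins lost their calls when any of 4 of the 6 arrays was left out, with adjusted p up to 0.0704 and 0.123.

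The promoters of Mki67 and Cdk1 are shown for the cell cycle homology region, the motif TTTGAA through which many mitotic genes are repressed outside cell division. Those of Mki67 (chr7:135716380-135716629, minus strand) and Cdk1 (chr10:69352913-69353162, minus strand) are the 250 bases before the start in GRCm38.p6, 5′ to 3′ on the strand of the gene, with the motif in capitals.
Mki67: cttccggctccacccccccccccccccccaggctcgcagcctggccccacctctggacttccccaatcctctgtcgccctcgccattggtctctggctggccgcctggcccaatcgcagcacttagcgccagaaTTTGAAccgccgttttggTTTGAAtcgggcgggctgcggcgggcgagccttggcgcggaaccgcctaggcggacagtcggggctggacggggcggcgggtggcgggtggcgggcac
Cdk1: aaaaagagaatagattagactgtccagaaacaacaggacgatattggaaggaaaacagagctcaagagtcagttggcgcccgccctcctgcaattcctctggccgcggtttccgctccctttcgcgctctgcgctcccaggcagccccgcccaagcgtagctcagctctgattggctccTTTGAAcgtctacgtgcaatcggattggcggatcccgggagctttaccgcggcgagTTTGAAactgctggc
The letters TTTGAA, searched on both strands, occurred in 11 of 13 mitosis genes that rose and had a window (84.6%), in 9 of 15 that were kept and did not pass the test (60.0%), and in 14% of all kept genes with a window. Among all genes that rose the share was 24.8%, and among those that fell 14.4%. Both promoters hold the motif in a pair, at bases -116 and -98 in Mki67 and at -71 and -15 in Cdk1.

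**Figure D2:**
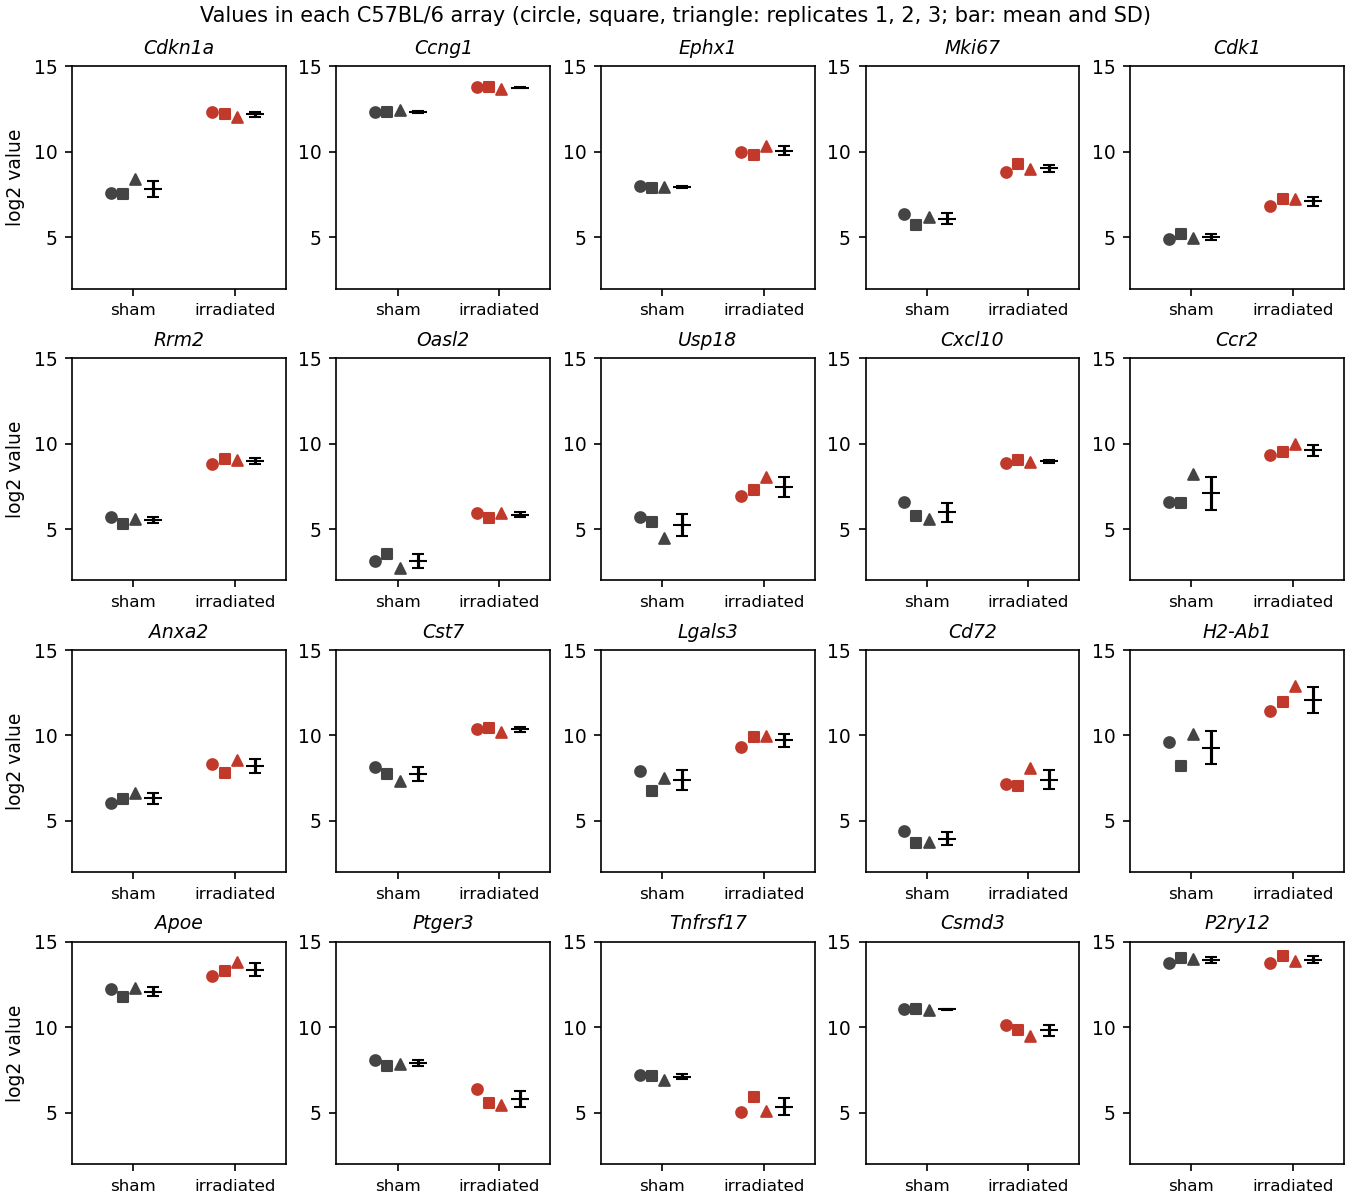
Log2 value in each of the 3 sham (grey) and 3 irradiated (red) C57BL/6 arrays for 20 genes, with circle, square and triangle for replicates 1, 2 and 3 and the bar giving mean and SD. Cdkn1a, Mki67 and Rrm2 separate the groups by several units, whereas P2ry12 overlaps at about 14 in both.

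Interferon-induced genes rose in part. These genes are switched on by type I interferon through STAT and IRF factors and encode antiviral enzymes and nucleic acid binding proteins. Of 46 kept members 16 rose (34.8%) and none fell, with a median of 0.58. Oasl2, a 2'-5' oligoadenylate synthetase-like protein, had values of 3.15, 3.53 and 2.74 in sham and 5.92, 5.66 and 5.96 in irradiated arrays. Its irradiated values were close together, and it rose by 2.71 ± 0.17 (adjusted p = 4.03e-05) from a level near the bottom of the scale. It passed the filter only through the irradiated C57BL/6 arrays. Usp18, a protease that removes the ubiquitin-like protein Isg15, went from 5.73, 5.43 and 4.49 to 6.95, 7.32 and 8.07, a rise of 2.23 ± 0.39. Ifi207, of the Ifi200 family of nucleic acid binding proteins, rose by 1.67 ± 0.27, and Slfn2, a Schlafen protein, by 1.52 ± 0.25. Ifitm3, a membrane protein that restricts virus entry, rose by 1.25 ± 0.22.

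The interferon calls leaned on irradiated replicate 3. The median difference of the list from the sham mean was 0.40 and 0.44 in irradiated replicates 1 and 2 and 0.95 in replicate 3. Without replicate 3, 3 members rose in place of 16, namely Oasl2, Ifi207 and Slfn2, which were called in every fit that left out 1 array. Usp18 then had an adjusted p of 0.0543. Of the 10 kept interferon-induced GTPases, 1 rose (10%, against 2.21% of all genes). This was Ifi47, by 1.59 ± 0.27, and its call was lost without irradiated replicate 3 (adjusted p = 0.0593). Of 18 kept interferon receptors, kinases, STAT and IRF factors and inhibitors, none was called higher by limma, against 2.21% of all genes, and 2 fell, with a median of -0.26. At an unadjusted p under 0.05, none was higher and 7 lower. Irf5, a factor downstream of Toll-like receptors, fell by 0.71 ± 0.16 and Socs3, a feedback inhibitor of cytokine receptors, by 0.90 ± 0.21. Each of these 2 calls was lost when any of 5 of the 6 arrays was left out, with adjusted p up to 0.153 and 0.173. Ifnb1, the gene of interferon beta, and Irf7 were below the filter.

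Ifit1 and Cxcl10 are shown for the interferon-stimulated response element, the letters GAAANNGAAA on either strand, in the 250 bases before the start in GRCm38.p6. Ifit1 lies at chr19:34640639-34640888 on the plus strand and Cxcl10 at chr5:92348890-92349139 on the minus strand. The motif is in capitals and reads on the opposite strand in Ifit1.
Ifit1: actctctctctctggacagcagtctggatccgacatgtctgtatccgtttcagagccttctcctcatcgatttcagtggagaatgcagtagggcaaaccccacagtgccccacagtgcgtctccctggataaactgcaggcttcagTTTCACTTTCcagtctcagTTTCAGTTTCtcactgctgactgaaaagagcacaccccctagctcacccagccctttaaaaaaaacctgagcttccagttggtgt
Cxcl10: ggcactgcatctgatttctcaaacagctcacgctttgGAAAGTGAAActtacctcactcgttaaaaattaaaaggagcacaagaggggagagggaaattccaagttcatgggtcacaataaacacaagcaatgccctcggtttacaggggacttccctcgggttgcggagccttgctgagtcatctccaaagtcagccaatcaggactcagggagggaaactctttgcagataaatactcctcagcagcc
The element occurred in 6 of 12 interferon-induced genes that rose and had a window (50%) and in 16 of 32 kept ones that did not pass the test (50%), against 3.8% of all kept genes with a window. The promoters printed for Cdkn1a, Mki67, Cdk1, Ifit1 and Cxcl10 were picked after the matches were seen, because they hold the motif.

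Chemokine ligands included some of the larger rises. Of 19 kept ligands 4 rose (21.1%) and 1 fell, with a median of 0.63. Cxcl10, an interferon-induced ligand of the receptor Cxcr3, had values of 6.61, 5.76 and 5.60 in sham and 8.89, 9.05 and 8.94 in irradiated arrays. The irradiated values differed by less than 0.2 between mice, and Cxcl10 rose by 2.97 ± 0.42 or 7.82-fold, with its call kept whichever array was left out. Cxcl9, which binds the same receptor, was scattered after irradiation, with values of 7.44, 4.69 and 6.39 against 2.50, 3.70 and 2.52 in sham. Cxcl9 would not have passed the filter without the irradiated C57BL/6 arrays, so its rise was favoured by the selection. Cxcl2, a neutrophil attractant, rose by 1.91 ± 0.47 with an adjusted p of 0.0499, and Ccl12, a monocyte attractant, by 0.94 ± 0.18. Ccl9 fell by 0.77 ± 0.16, from 11.75 ± 0.17 to 10.99 ± 0.03. Of the 5, Cxcl10 alone was called without irradiated replicate 3.

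Of 7 kept chemokine receptors 3 rose (42.9%), with a median of 0.73. Ccr2, the receptor by which monocytes leave the bone marrow, had values of 6.59, 6.51 and 8.20 in sham and 9.36, 9.50 and 9.99 in irradiated arrays. Sham replicate 3 lay well above the other sham mice and still below every irradiated mouse, and the rise was 2.52 ± 0.42 or 5.73-fold (adjusted p = 0.0101). Ccr1, a receptor for several CC chemokines, went from 7.77, 7.94 and 8.23 to 9.33, 10.45 and 9.76, a rise of 1.86 ± 0.30. Both were called whichever array was left out, but Ccr2 had an adjusted p of 0.0741 in the 6 C57BL/6 arrays alone and 0.056 with no filter on low values. Ccrl2, a receptor-like protein that binds without signalling, rose by 0.73 ± 0.17, and Cx3cr1, the fractalkine receptor of microglia, had a difference of -0.22 ± 0.11 (adjusted p = 0.259).

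Inflammatory cytokines did not pass the test. Of 19 kept cytokines and growth factors none was called by limma, against 3.67% of all genes, and the median was 0.06. At an unadjusted p under 0.05, 3 were higher and 1 lower. Il6 had a mean of 9.35 ± 0.47 in sham and 9.43 ± 0.22 in irradiated arrays, a difference of 0.08 ± 0.21. Tnf went from 7.08, 5.62 and 6.38 to 8.05, 7.26 and 7.30, a difference of 1.18 ± 0.40 with an adjusted p of 0.13. Il1b had values of 7.19, 6.64 and 7.19 in sham and 8.63, 7.16 and 9.34 in irradiated arrays. The Il1b groups overlapped, and irradiated replicate 2 lay within the sham range. Neither gene reached the threshold, and with standard errors of 0.40 for Tnf and 0.52 for Il1b changes of this size could not be resolved.

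The NF-kB subunits and inhibitors, which act between receptors and cytokine genes, had no call among 11 kept members and a median of -0.18. Of all genes 3.67% were called, so no call in this list or the next 2 does not show that they were unchanged. Of the 11, 3 were lower at an unadjusted p under 0.05. All 11 had a difference below 0. The smallest adjusted p-values were those of Tnfaip3 at -0.40 ± 0.12 (adjusted p = 0.101) and Nfkbie at -0.45 ± 0.14 (adjusted p = 0.11), and the lowest difference was that of Nfkb2 at -0.78 (adjusted p = 0.148). Pattern receptors and inflammasome genes had no call among 25 and a median of -0.16, with 1 higher and 3 lower at an unadjusted p under 0.05. Complement and Fc receptor genes had no call among 14, with 3 higher at that level, and all 14 had a difference above 0 with a median of 0.17. Their largest difference was that of Fcgr4, an activating IgG receptor, at 1.91 ± 0.55 (adjusted p = 0.0844).

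**Figure D3:**
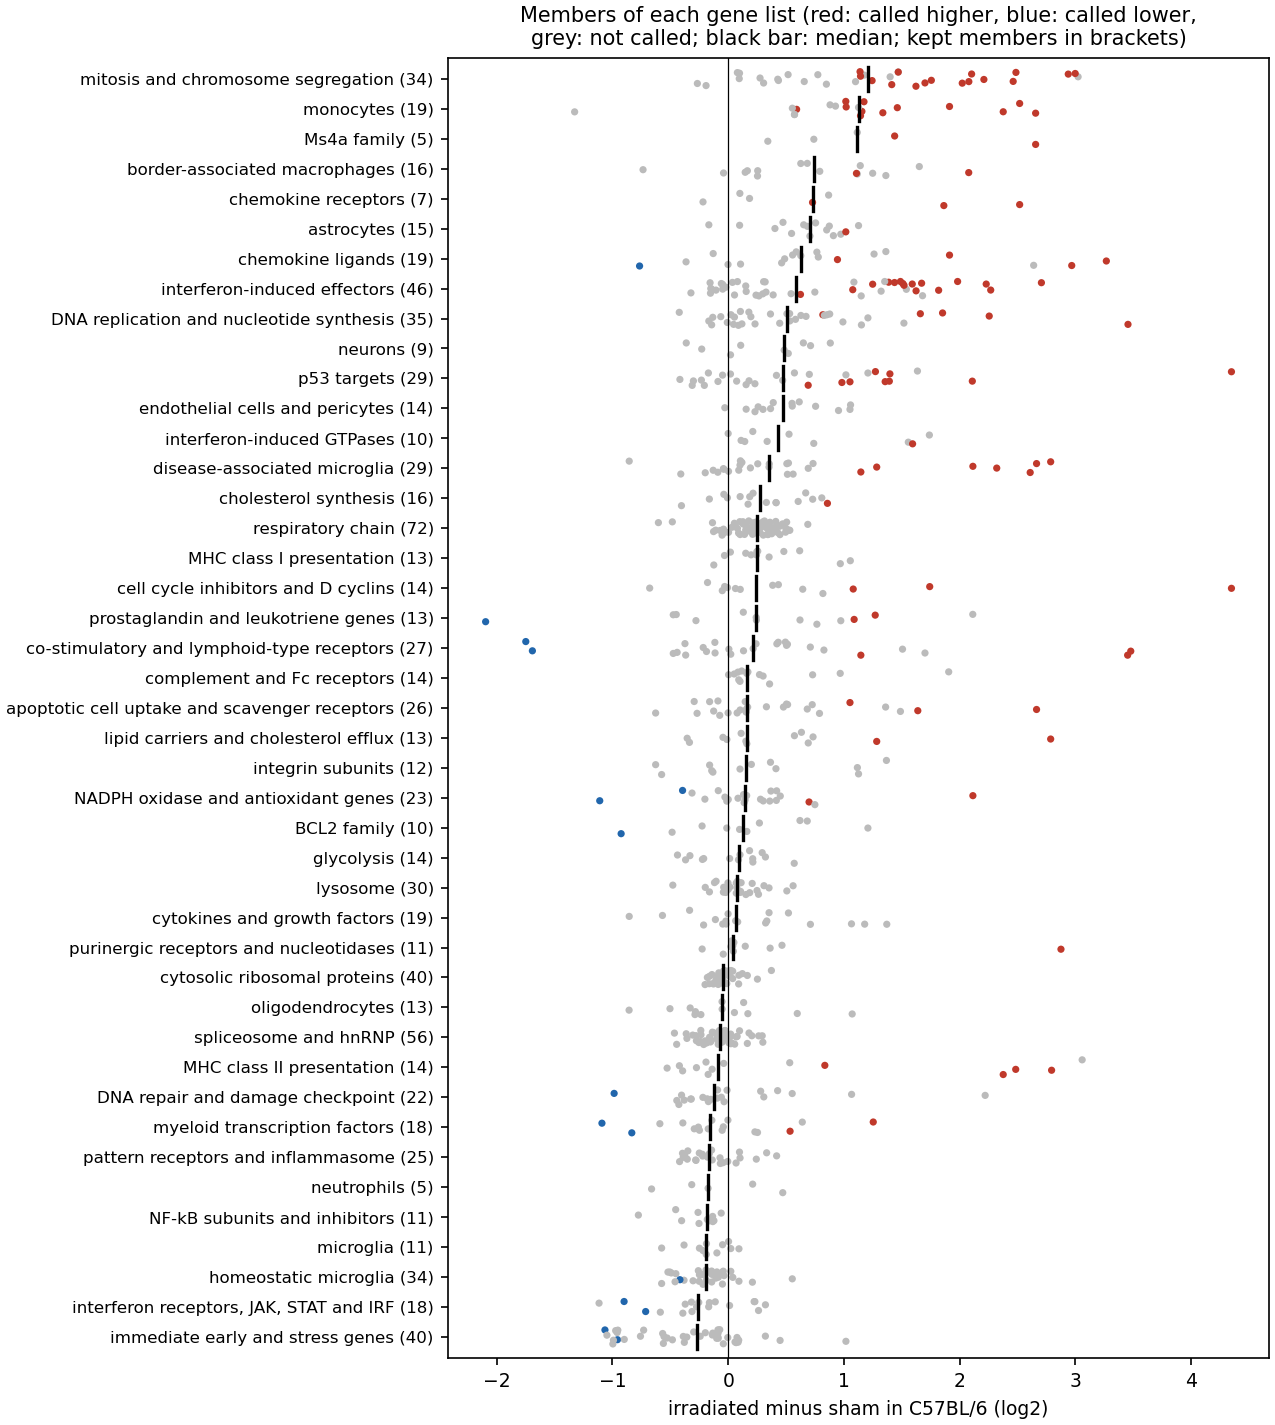
Difference between irradiated and sham means (log2) of each kept member of the process and cell type lists, ordered by the list median (black bar), with the number of kept members in brackets. Members that rose are red, those that fell are blue, and the mitosis list has the highest median at 1.21.

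Genes of MHC class II, which presents peptides to CD4+ T cells, split into 2 sets. Of 14 kept members 4 rose and none fell, while the median was -0.09. H2-Ab1, a chain of the I-A molecule, had values of 9.61, 8.20 and 10.08 in sham and 11.41, 11.94 and 12.92 in irradiated arrays. Its sham mice spanned almost 2 units, and it rose by 2.79 ± 0.60 (adjusted p = 0.0329). H2-Aa, the partner chain, went from 10.99, 9.82 and 11.71 to 12.84, 13.06 and 13.75, and Cd74, the invariant chain, from 6.63, 6.12 and 7.21 to 8.65, 8.87 and 9.89. H2-DMb2, a subunit of the peptide exchange factor, rose by 0.83 ± 0.18. No class II gene was called without irradiated replicate 3, and the adjusted p was then 0.129 for H2-Ab1, 0.112 for H2-Aa and 0.147 for Cd74. The probe sets of H2-Ab1, H2-Aa and H2-DMb2 are marked as shared between transcripts. Class I presentation genes had no call among 13, against 3.67% of all genes, with 4 higher at an unadjusted p under 0.05. Of their differences 11 were above 0, the median was 0.25, and H2-K1 differed by 0.97 ± 0.34 (adjusted p = 0.137).

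Receptors better known from lymphocytes moved in both directions. Of 27 kept members 3 rose and 2 fell, with a median of 0.22. Cd72, an inhibitory lectin receptor of B cells, went from 4.43, 3.74 and 3.75 to 7.16, 7.04 and 8.07, a rise of 3.45 ± 0.38. Cd244a, the 2B4 receptor of NK cells, went from 2.28, 3.10 and 2.52 to 5.70, 6.52 and 6.11, so its sham values lay near the bottom of the scale. Cd72 and Cd244a were below 5 in every sham array of both strains. Neither would have passed the filter without the irradiated C57BL/6 arrays, so their rises were favoured by the selection. Cd52, a small surface glycoprotein of leukocytes, rose by 1.15 ± 0.18 from a sham range of 10.86 to 11.12. Tnfrsf17, the BCMA receptor of plasma cells, fell from 7.24, 7.14 and 6.95 to 5.03, 5.93 and 5.12 (-1.75 ± 0.26). Lag3, a T cell inhibitory receptor with MHC class II as ligand, fell from 6.82, 6.89 and 7.16 to 5.14, 5.64 and 5.01 (-1.69 ± 0.31), and its call was lost without irradiated replicate 3 (adjusted p = 0.0714). The other 4 were called in every fit that left out 1 array. Of 16 T and NK cell markers with a probe set 14 were below 5 in all 6 arrays, and 10 of 13 B cell markers were too. The 2 kept markers of each list were above 5 in all 6 arrays, and none was called. Gzma had means of 6.04 in sham and 8.01 in irradiated arrays, and Klrd1 of 9.24 and 8.83. For Cd79b the means were 7.83 and 7.31, and for Ighm 10.20 and 9.67.

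Disease-associated microglia genes, a set first described around amyloid plaques, rose in part. Of 29 kept members 7 rose (24.1%) and none fell, with a median of 0.35. Cst7, the cystatin F protease inhibitor, had values of 8.15, 7.73 and 7.35 in sham and 10.39, 10.45 and 10.22 in irradiated arrays, a rise of 2.61 ± 0.27 or 6.10-fold (adjusted p = 0.00112). Lgals3, galectin-3, went from 7.92, 6.78 and 7.54 to 9.30, 9.92 and 9.98, a rise of 2.32 ± 0.32. Axl, a receptor tyrosine kinase for apoptotic cells, went from 4.05, 3.44 and 4.25 to 5.94, 6.46 and 7.34. Cybb, the catalytic subunit of the phagocyte NADPH oxidase, rose by 2.11 ± 0.35. These 4 and Cd52 were called in every fit that left out 1 array.

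The lipid genes of that set were less stable. Apoe, the apolipoprotein that carries cholesterol out of glia, went from 12.22, 11.78 and 12.29 to 13.02, 13.32 and 13.80, a rise of 1.28 ± 0.29 (adjusted p = 0.0384). Ch25h, which makes 25-hydroxycholesterol, went from 6.08, 4.93 and 6.25 to 8.28, 8.72 and 8.62, a rise of 2.79 ± 0.56 (adjusted p = 0.0258). Each lost its call when any of 5 of the 6 arrays was left out, with adjusted p up to 0.142 for Apoe and 0.0926 for Ch25h. Trem2, the receptor on which part of the disease-associated programme depends, did not pass the test, with a mean of 11.42 ± 0.23 in sham and 11.01 ± 0.13 in irradiated arrays (-0.41 ± 0.20, adjusted p = 0.267). Among apoptotic cell uptake and scavenger receptors, 3 of 26 rose (11.5%, against 2.21% of all genes): Axl, Cd300lf (1.64 ± 0.26) and Cd93 (1.05 ± 0.24). Cd93 lost its call when any of the 6 arrays was left out, with adjusted p up to 0.132, and 5 of the 26 were called without sham replicate 3.

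Of 34 kept homeostatic microglia genes none rose and 1 fell (2.94%, against 1.46% of all genes), with a median of -0.19, and 29 had a difference below 0. At an unadjusted p under 0.05, 1 was higher and 6 lower. The one that fell was Slco2b1, an organic anion transporter, by 0.42 ± 0.10 from 13.77 ± 0.02, and its call was lost when any of 5 of the 6 arrays was left out (adjusted p up to 0.168). Siglech, a sialic acid binding lectin of microglia, differed by -0.38 ± 0.13 and Tmem119 by -0.19 ± 0.10, with adjusted p of 0.12 and 0.273. P2ry12 differed by 0.02 ± 0.14. Itgam, the gene of the CD11b protein used in the sort, had values of 9.12, 9.42 and 8.93 in sham and 8.72, 8.68 and 8.34 in irradiated arrays, a difference of -0.58 ± 0.30 (adjusted p = 0.294). The summed linear level of the 34 genes was 408820 to 418730 in sham and 361772 to 401612 in irradiated arrays.

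Markers of monocytes had the most calls of the 12 cell type lists. Of 22 with a probe set 19 were kept, and 12 of these rose (63.2%) while none fell, with a median of 1.13. Of the 19, 1 had a difference below 0, at -1.33, which did not pass the test. Beside Ccr2, Cd44, the hyaluronan receptor, had values of 5.74, 5.75 and 7.10 in sham and 8.55, 8.51 and 8.65 in irradiated arrays. Ms4a4c, a tetraspanning membrane protein of the Ms4a family, went from 8.32, 6.68 and 7.45 to 9.85, 9.94 and 10.62, a rise of 2.66 ± 0.40. Anxa2, a calcium-dependent membrane binding protein, rose by 1.91 ± 0.29, Crip1, a LIM domain protein, by 1.17 ± 0.17, and Fn1, fibronectin, by 1.14 ± 0.18. Without irradiated replicate 3, 8 members were called in place of 12, and 7 were called in every fit that left out 1 array.

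The summed linear level of the monocyte markers was 45513 to 65728 in sham and 79693 to 95507 in irradiated arrays, without overlap. Sham replicate 3, the sham array with the highest values of Ccr2 and Cd44, also had the highest list median of the sham arrays, at 0.33 above the sham mean. Of the 7 kept chemokine receptors 3 rose beside them, as did 2 of the 5 kept Ms4a genes (list median 1.11), of which 1 was called without sham replicate 1 and 4 without sham replicate 3. Ccr2 and Ms4a4c are each on the monocyte list and on 1 of those lists. The share of monocytes in the sort was not measured, and their part in these results was not tested. Ly6c2, the marker of inflammatory monocytes, was not analysed here. Vim, the S100 genes and lysozymes on the list are also made by other cells.

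Border-associated macrophages line the meninges and vessels and also carry CD11b. Of 16 kept markers 2 rose (12.5%, against 2.21% of all genes), Dab2 (1.11 ± 0.26) and Mgl2 (2.08 ± 0.49), with a median of 0.74. Of the 16, 10 were higher and 1 lower at an unadjusted p under 0.05. The count of calls depended on single arrays, with 8 higher without sham replicate 3, 1 without irradiated replicate 1 and none when any of the other 4 arrays was left out. Another probe set of Dab2 differed by 0.06. Their summed level was 43300 to 57895 in sham and 58821 to 65833 in irradiated arrays. Neutrophil markers had no call among 5 kept and none at an unadjusted p under 0.05, and 8 of 16 were below 5 in all 6 arrays. The 4 erythroid markers with a probe set were all below 5.

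Transcripts of other brain cells were present in the sort. Of 15 astrocyte markers 1 rose (6.67%, against 2.21% of all genes), Fgfr3 (1.02 ± 0.23, adjusted p = 0.0416), and 14 had a difference above 0 with a median of 0.71. At an unadjusted p under 0.05, 10 of the 15 were higher and none lower. Fgfr3 lost its call when any of 5 of the 6 arrays was left out, with adjusted p up to 0.155. The summed level of the astrocyte markers was 32579 to 40051 in sham and 41991 to 63992 in irradiated arrays, without overlap. Sox2, a marker of neural progenitors and astrocytes, rose by 1.12 ± 0.25, and its call was lost when any of 4 arrays was left out (adjusted p up to 0.119). Endothelial and pericyte markers had no call among 14 and a median of 0.47, neurons none among 9 and a median of 0.48, and oligodendrocytes none among 13 and a median of -0.05. Of all genes 3.67% were called, and at an unadjusted p under 0.05 these 3 lists had 3 higher, none, and 1 lower. The summed levels overlapped between the groups for all 3 of these lists. What share of any other change lies in these cells was not tested.

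**Figure D4:**
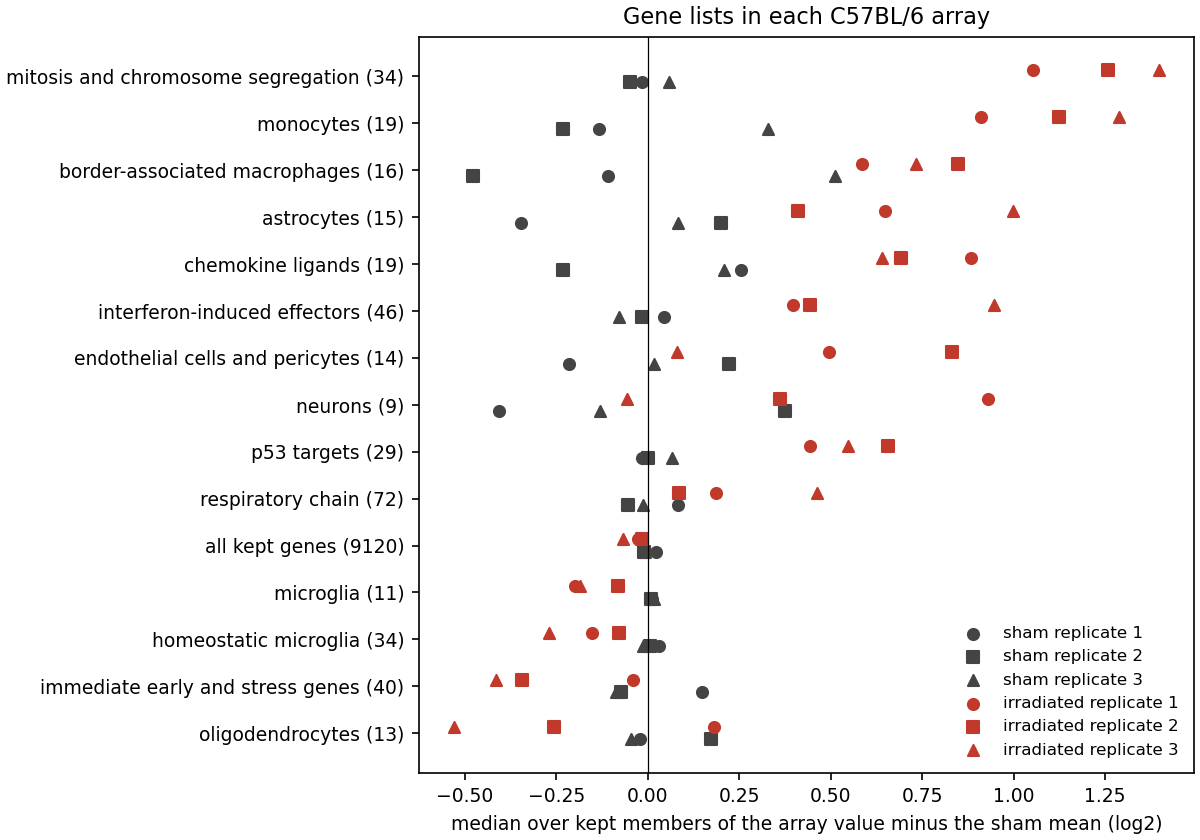
Median over the kept members of a list of the difference between an array and the sham mean (log2), for each of the 3 sham (grey) and 3 irradiated (red) C57BL/6 arrays, with the shape giving the replicate. The mitosis list lies between 1.05 and 1.40 in the irradiated arrays, and for neurons and oligodendrocytes the arrays of the groups overlap.

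Of 13 kept prostaglandin and leukotriene genes 2 rose (15.4%, against 2.21% of all genes) and 1 fell (7.69%, against 1.46%), with a median of 0.24. At an unadjusted p under 0.05, 6 were higher and 3 lower. Ptger3, the EP3 receptor for prostaglandin E2, had values of 8.10, 7.74 and 7.87 in sham and 6.37, 5.57 and 5.49 in irradiated arrays. It was the one gene that fell by 4-fold or more (-2.10 ± 0.36, 4.27-fold, adjusted p = 0.013), and without irradiated replicate 3 its adjusted p was 0.0608. Alox5, the lipoxygenase that begins leukotriene synthesis, went from 7.39, 7.54 and 7.49 to 8.73, 8.96 and 8.54, a rise of 1.27 ± 0.15. Pla2g4a, the phospholipase that frees arachidonic acid, went from 10.95, 11.27 and 11.31 to 12.31, 12.45 and 12.03, a rise of 1.09 ± 0.17. Both were called in every fit that left out 1 array. The other 10 of the 13 kept members did not pass the test.

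Oxidative stress genes also split. Cybb and Prdx4, a peroxiredoxin of the secretory pathway, rose, the latter by 0.70 ± 0.11 from 10.54 ± 0.14. Ncf1, a cytosolic organiser of the same oxidase as Cybb, fell by 0.39 ± 0.09, from 12.62 ± 0.07 to 12.23 ± 0.03, and lost its call when any of the 6 arrays was left out. Duoxa1, a maturation factor of dual oxidases, differed by -1.11 ± 0.18, but all of its 6 values lay between 2.37 and 3.70, near the bottom of the scale. P2ry10, a lysophospholipid receptor, was the purinergic list's one call, at 2.79, 2.34 and 3.30 in sham and 5.11, 5.42 and 6.52 in irradiated arrays. It passed the filter only through the irradiated C57BL/6 arrays.

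The genes that fell most and kept their calls in every fit that left out 1 array were not concentrated in the lists. After Tnfrsf17 came Ermap, a butyrophilin-like membrane protein, from 6.48, 6.70 and 6.32 to 4.70, 5.26 and 4.88 (-1.55 ± 0.21). Csmd3, a large CUB and sushi domain protein, had sham values of 11.08, 11.06 and 11.04 that agreed to within 0.04, and irradiated values of 10.13, 9.86 and 9.49 (-1.23 ± 0.16). Ppm1l, a protein phosphatase, fell by 1.22 ± 0.15 from a sham range of 8.95 to 9.08. Padi2, which converts arginine to citrulline in proteins, fell by 1.15 ± 0.12, and Rasl2-9, a Ran-like GTPase, by 1.16 ± 0.12. Col27a1, a fibrillar collagen, fell by 1.14 ± 0.16.

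Transcription factors and RNA-binding proteins were among the falls. Myc, which drives growth and division genes, had values of 9.11, 8.94 and 9.01 in sham and between 7.72 and 8.15 in irradiated arrays, and fell by 1.06 ± 0.18 (adjusted p = 0.0115). Pvt1, the long non-coding RNA gene next to Myc, changed the other way, from 7.20, 6.79 and 6.25 to 9.49, 9.27 and 8.82, a rise of 2.44 ± 0.27. Ebf3, a helix-loop-helix factor, fell by 1.16 ± 0.17, Batf3, a factor of dendritic cell development, by 0.83 ± 0.13, and Sfpq, a splicing factor of paraspeckles, by 0.88 ± 0.12. These 5 were called in every fit that left out 1 array, although another probe set of Sfpq differed by -0.06. Cebpa, a myeloid lineage factor, fell by 1.09 ± 0.22, with its call lost when any of 4 arrays was left out (adjusted p up to 0.0712). Other probe sets differed from the named one for Thoc3, a subunit of the THO mRNA export complex (-1.32 and 0.02), and for Kcnma1, the BK potassium channel (-1.45 to -0.02).

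Immediate early and stress genes, which also respond to the handling of cells, had 2 calls among 40 kept members, both lower (5%, against 1.46% of all genes). The median was -0.27, and 32 differences were below 0. Of the 40, 1 was higher and 13 lower at an unadjusted p under 0.05, and 4 were called lower without irradiated replicate 1. Junb, an AP-1 subunit, fell by 0.96 ± 0.21, from 9.66 ± 0.11 to 8.71 ± 0.35, and Myc was the other. Junb lost its call when any of 5 arrays was left out, with adjusted p up to 0.142. The list's median difference from the sham mean was -0.04 in irradiated replicate 1, -0.34 in replicate 2 and -0.42 in replicate 3, against 0.15, -0.07 and -0.09 in the sham arrays. The groups overlapped, with irradiated replicate 1 above sham replicates 2 and 3.

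Some further rises had no list in common. Exoc4, a subunit of the exocyst, had sham values of 9.83, 9.77 and 9.80 and irradiated values of 11.07, 11.02 and 10.90, a rise of 1.20 ± 0.12 (adjusted p = 0.00106). Lgals1, galectin-1, went from 9.98, 9.48 and 10.25 to 11.32, 11.53 and 11.92, a rise of 1.69 ± 0.20. Glipr1, a p53-regulated protein of the CAP family, rose by 1.85 ± 0.22, although another of its probe sets differed by -0.12. D630023F18Rik, an uncharacterised gene, was at the lowest value on the arrays, 2.23, in all 3 sham mice and at 5.41, 7.66 and 6.99 in the irradiated mice, so no fold is given.

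The lists of respiratory chain, ribosomal, spliceosome, glycolysis and lysosomal genes had no calls. The 72 kept respiratory chain genes had a median of 0.25, with 63 differences above 0 and 17 higher at an unadjusted p under 0.05, and the list's median difference from the sham mean was 0.19, 0.09 and 0.46 in irradiated replicates 1, 2 and 3. Cytosolic ribosomal protein genes had a median of -0.05 over 40 members, spliceosome genes -0.07 over 56, glycolysis genes 0.10 over 14 and lysosomal genes 0.07 over 30. At that level these 4 had 1, 0, 1 and 3 higher members and 0, 4, 2 and 1 lower. Of the BCL2 family of 10 kept members 1 fell, Bmf, a pro-apoptotic member, by 0.93 ± 0.17, and lost its call when any of 3 arrays was left out. Integrin subunits had no call among 12 and 2 higher at that level, and Sc5d was the 1 of 16 cholesterol synthesis genes that rose (0.86 ± 0.19).

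The change after irradiation was tested for a difference between C57BL/6 and Balb/c in the same fit. Of 9120 genes 7 passed (0.0768%). Of the genes that rose in C57BL/6, 3 were among them: Oasl2, Mcm5 and D630023F18Rik each had a higher change than in Balb/c, where their differences were 0.88, -0.95 and 0.05. Oasl2 and D630023F18Rik were above 5 in the irradiated C57BL/6 arrays alone. They passed the filter only through that group, so their higher change was favoured by the selection. The others, Il6, Ifi44l, Ly6e and Chsy1, were not called in C57BL/6. For Mki67 the difference between strains was 2.28 ± 0.37 with an adjusted p of 0.0822, and for Cdk1 1.93 ± 0.32 with an adjusted p of 0.0857. The remaining genes were not shown to respond alike or differently in the 2 strains. Balb/c irradiated replicates 2 and 3 had the widest gap between 3' and 5' probe sets of Actb and Gapdh (4.82 and 4.21). Its part in the strain differences was not tested.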

How the data were processed

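Log2 values of 45101 probe sets were deposited by the authors, made with GCRMA (background correction, quantile normalization and summary of probes) per the submitters' processing notes, with no version given. Sorted values agreed between arrays to within 0.0003 and ran from 2.23 to 16.2. After 64 control probe sets were removed, 34945 had 1 gene symbol (932 had several and were not used). The current symbol was looked up by Entrez identifier for 34754, whether or not it differed. Where a gene had several probe sets, the one with the highest mean across the 12 arrays stood for it. Probe sets whose names mark them as shared by several transcripts were kept. Beside those marked in the text, they include the ones of Rrm2, Rps27l, Ccnd2, Socs3, Ms4a4c, Slco2b1, Trem2, Nfkbie, Bmf and H2-K1.

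The fit used limma 3.58.1 in R 4.3.3, with 1 mean per group over all 12 arrays, so that Balb/c arrays share in the spread. P-values of the eBayes test were adjusted by Benjamini and Hochberg over 9120 genes, and called means an adjusted p under 0.05. A fold is 2 to the power of the difference of means. Precision is limited by the number of arrays. The script was tested on simulated data. Deviations of same-numbered replicates had r of 0.067, 0.114 and -0.018 in C57BL/6 and 0.061, 0.068 and 0.283 in Balb/c. With 3 arrays per group these values cannot exclude a pairing by number, and the main fit used none.

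Genes were named as follows: the 20 largest rises and falls called in every fit that left out 1 C57BL/6 array, up to 5 called members of each list (2 by smallest p if none was called), the 5 strongest strain differences in each direction, 17 fixed genes, and, among genes with a group mean above 10, the 10 of smallest p for rises and for falls. Not every gene so chosen is printed. Genes and lists were chosen with earlier results of these data known. One list pattern, for integrins, was corrected after the values were seen, which changed no call, and the motif letters were set then too. Promoters of 7468 kept genes came from RefSeq (GRCm38.p6).

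The alternatives were no filter, a filter at 7, centred arrays, cyclic loess, a floor at 4, the mean of probe sets, eBayes with trend and robust, array weights, the 6 arrays alone, a replicate block and leaving out each C57BL/6 array.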

Additional observations from a re-analysis of the deposited data

Results flagged for a closer look

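The response to irradiation differed between the strains by limma's test of the difference for 7 genes, and these are values of the C57BL/6 change minus the Balb/c change on the log2 scale. Groups of 3 arrays are too small for a test of outlying arrays. Il6 differed by -2.88 ± 0.30 (SE, adjusted p = 0.00609), with C57BL/6 means of 9.35 in sham and 9.43 in irradiated arrays and Balb/c means of 6.52 and 9.48. Ifi44l, an interferon-induced gene, differed by -2.19 ± 0.20 (adjusted p = 0.00365), and its C57BL/6 values were all at the bottom of the scale, from 2.23 to 2.55. Ly6e, a surface protein of the Ly6 family, differed by -2.47 ± 0.31 (adjusted p = 0.0165), with means of 11.23 and 11.76 in C57BL/6 against 8.23 and 11.23 in Balb/c. Chsy1, a chondroitin synthase, differed by -1.15 ± 0.17 (adjusted p = 0.0498), with means of 13.19 and 13.06 in C57BL/6 against sham values of 10.84 to 11.21 and irradiated values of 11.85 to 12.18 in Balb/c.

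The other 3 rose more in C57BL/6. Of these, Oasl2 and D630023F18Rik passed the filter only through the irradiated C57BL/6 arrays. D630023F18Rik differed by 4.42 ± 0.59 (adjusted p = 0.0203), with Balb/c values from 2.23 to 2.33. Oasl2 differed by 1.82 ± 0.24 (adjusted p = 0.0203), with Balb/c means of 2.23 in sham and 3.11 in irradiated arrays, near the bottom of the scale. Mcm5 differed by 1.77 ± 0.20 (adjusted p = 0.0101), with Balb/c means of 9.18 in sham and 8.23 in irradiated arrays, the opposite direction to C57BL/6. The probe sets of Ly6e and Mcm5 are marked as shared between transcripts.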

How the results depend on the processing

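The count of 335 genes changed in C57BL/6 stayed between 312 and 434 under a filter at 7, centring, loess, the floor, the mean of probe sets, trend and robust, and array weights, and was 155 with no filter and 96 (75 higher, 21 lower) in the 6 arrays alone. With the replicate block it was 217, of which 174 were among the 335, and whether the replicate numbers mark a pairing is not known. Leaving out 1 C57BL/6 array gave 113 to 351 calls, and Balb/c arrays were not left out. Of the 93 genes called in all of those fits, 72 were called in the 6 arrays alone, 89 with no filter and 88 with the block. In the 6 arrays alone Ccr2, Ms4a4c, Kcnma1, Batf3, Ifi207, Cybb, Cd300lf, Prdx4 and Fn1 had adjusted p of 0.0525 to 0.0984, and with no filter Axl, Cybb and Ccr2 had 0.0614, 0.0542 and 0.056. The split of higher and lower calls was 229 and 110 under loess and 165 and 147 with the mean of probe sets, in place of 202 and 133. The 7 strain differences became 2 with no filter and 1 with the replicate block, and 3 to 7 when 1 array was left out. Among the named genes, 54 of 157 fell short of the threshold in the 6 arrays alone, 40 with no filter, 47 without irradiated replicate 3 and 27 with the block.

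Duoxa1 (-1.11) had a difference of 0.00 with the floor at 4, which lies above all its values. Signs turned for genes with small differences: Rpl41 (-0.22) and Cx3cr1 (0.0002) with the mean of probe sets, and Il6 (-0.012) and P2ry12 (-0.037) with array weights. When 1 array was left out, the differences ran from -0.017 to 1.09 for S100a9, -0.049 to 0.114 for Ifi44l, -0.16 to 0.31 for Il6 and -0.096 to 0.108 for P2ry12. The medians of 10 lists changed sign under some setting. In the main fit all had medians within 0.2 of 0 except the Ms4a and B cell lists, whose medians were 0.00 with no filter. The neutrophil median of -0.17 became 1.03 without sham replicate 1 and 0.53 without irradiated replicate 2, so it depended on single arrays. The cause was not tested beyond the fewer arrays or more genes that a setting has by construction. Low signal limits the genes near the bottom of the scale.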
